A study of Mus musculus with 3 samples.

Results

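Small nucleolar RNAs (snoRNAs) and the related small Cajal body RNAs (scaRNAs) were examined for the short fragments they leave in small RNA libraries of MIN6 cells. The genes were chosen by their measured read number: all GENCODE mouse genes of the type snoRNA or scaRNA whose locus held at least 1500 aligned reads, summed over the 3 libraries. Of the 1558 annotated genes, 133 could be placed on the alignments by their sequence, none of them a Snora gene. The minimum was met by 101 of these 133, and the genes not placed were not counted. These 101 genes occupy 96 distinct loci, because 5 loci carry a pair of overlapping annotations, and each locus is treated below as 1 RNA. Of the 96 RNAs, 49 carried a Snord symbol (C/D box), 5 were scaRNAs, 42 had no class in their GENCODE symbol and none carried a Snora symbol (H/ACA box).

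MIN6 is an insulin-secreting line grown from a beta cell tumor (insulinoma) of the mouse pancreas, and stands for 1 transformed line rather than for islet tissue. All 3 libraries are replicates of 1 group, cultured in DMEM with 25 mM glucose and 10% heat-inactivated fetal bovine serum, so there was no untreated or comparison group. Small RNA libraries were made from total RNA with the TruSeq small RNA kit and sequenced on the HiSeq platform, with 9269795 to 10816006 mapped reads per library. The hairpin of Mir375, the miRNA that marks islet endocrine cells, held 34.5%, 36.9% and 38.3% of the mapped reads in replicates 1, 2 and 3.

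snoRNAs guide the chemical modification of other RNAs, mostly ribosomal RNA, and in mammals most are cut out of the introns of host genes. C/D box snoRNAs carry a C box near the 5′-end and a D box near the 3′-end, with a less conserved pair (C′ and D′) between them, and direct 2′-O-methylation by pairing the bases just upstream of D or D′ with the target. H/ACA box snoRNAs fold into hairpins joined by the H box, end just after an ACA trinucleotide and direct pseudouridylation. scaRNAs use the same boxes but reside in Cajal bodies and guide the modification of spliceosomal RNAs.

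The sequences below show where the most abundant fragment lay within the RNA. The RNA sequences are those of GENCODE release M21, written as DNA, and capitals mark the most used combination of 5′-start and 3′-end over the 3 libraries, cut to the annotated RNA. The positions were found by placing each sequence on the deposited alignments, whose build is mm9 per the submitters' processing notes. In the first set, the fragment covered the 5′ part of the RNA and its last 6 bases were CTGA, the letters of the D box, followed by a pair of bases. Snord52 lies at chr17:35087897-35087962 (minus strand), Snord45c at chr3:153575089-153575168 (minus), Snord57 at chr2:130103752-130103823 (plus), Snord69 at chr14:31827473-31827552 (minus), Snord1a at chr11:116535912-116535985 (plus) and Scarna9 at chr9:15130708-15130777 (minus).
Snord52: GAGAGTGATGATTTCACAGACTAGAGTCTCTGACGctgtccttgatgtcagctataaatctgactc
Snord45c: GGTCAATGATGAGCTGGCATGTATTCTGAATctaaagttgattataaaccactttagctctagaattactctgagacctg
Snord57: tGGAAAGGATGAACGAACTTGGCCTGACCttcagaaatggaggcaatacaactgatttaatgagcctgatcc
Snord69: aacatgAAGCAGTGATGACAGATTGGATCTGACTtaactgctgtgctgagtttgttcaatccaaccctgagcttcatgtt
Snord1a: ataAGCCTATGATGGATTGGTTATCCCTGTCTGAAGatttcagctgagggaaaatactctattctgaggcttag
Scarna9: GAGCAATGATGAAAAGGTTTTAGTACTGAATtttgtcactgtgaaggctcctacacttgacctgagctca

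In the second set, the fragment covered the 3′ part. Gm25855 lies at chr19:8798483-8798554 (plus), Snord2 at chr16:23109026-23109094 (plus), Gm25789 at chr1:162968439-162968514 (plus), Snord33 at chr7:52382234-52382317 (minus), Snord12 at chr2:166890776-166890865 (plus), Snord99 at chr4:131866606-131866679 (plus) and Snord87 at chr1:9932544-9932630 (minus). The fragments of Snord2, Gm25789, Snord33, Snord12 and Snord99 again end on CTGA and a pair of bases, while that of Gm25855 runs 1 base further. In Snord87 the last capital is base 81, where nearly all reads that ended there carried a mismatched A, and about as many reads ended at base 80.
Gm25855: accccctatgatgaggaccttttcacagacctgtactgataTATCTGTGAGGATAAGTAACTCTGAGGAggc
Snord2: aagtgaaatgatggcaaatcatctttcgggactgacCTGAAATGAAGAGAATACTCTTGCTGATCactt
Gm25789: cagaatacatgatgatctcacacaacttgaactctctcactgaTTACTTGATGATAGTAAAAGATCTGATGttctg
Snord33: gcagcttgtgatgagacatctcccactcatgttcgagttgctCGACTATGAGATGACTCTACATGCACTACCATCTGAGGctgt
Snord12: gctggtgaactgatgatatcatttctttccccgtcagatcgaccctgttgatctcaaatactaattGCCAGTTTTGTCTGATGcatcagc
Snord99: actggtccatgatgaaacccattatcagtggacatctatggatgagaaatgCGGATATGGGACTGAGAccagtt
Snord87: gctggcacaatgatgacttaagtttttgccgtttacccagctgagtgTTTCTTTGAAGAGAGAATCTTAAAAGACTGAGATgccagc

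In the third set, the fragment was placed differently. It came from the middle of Snord118, the U8 snoRNA, at chr11:68886929-68887063 (plus), from the last bases of Scarna6 at chr1:89681131-89681395 (plus), and from 1 hairpin arm of the RNA annotated as Mir1839, of gene type scaRNA, at chr7:88674741-88674867 (plus). Snora41 at chr1:63225578-63225709 (plus) and Snora36b at chr1:187066786-187066917 (plus) fell below the read minimum and are shown as H/ACA box examples.
Snord118: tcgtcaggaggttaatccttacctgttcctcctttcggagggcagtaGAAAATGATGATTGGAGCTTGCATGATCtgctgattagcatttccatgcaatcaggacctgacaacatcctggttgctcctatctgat
Scarna6: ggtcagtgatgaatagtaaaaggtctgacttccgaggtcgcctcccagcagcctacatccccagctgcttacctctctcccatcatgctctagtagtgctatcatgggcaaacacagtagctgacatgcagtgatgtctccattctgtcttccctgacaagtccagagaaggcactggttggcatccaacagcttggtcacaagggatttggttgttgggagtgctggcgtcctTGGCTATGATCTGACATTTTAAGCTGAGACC
Mir1839: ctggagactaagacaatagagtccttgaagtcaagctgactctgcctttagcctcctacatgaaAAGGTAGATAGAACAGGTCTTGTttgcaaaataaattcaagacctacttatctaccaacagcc
Snora41: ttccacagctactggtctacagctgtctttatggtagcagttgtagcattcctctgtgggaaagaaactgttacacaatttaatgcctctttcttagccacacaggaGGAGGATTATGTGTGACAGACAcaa
Snora36b: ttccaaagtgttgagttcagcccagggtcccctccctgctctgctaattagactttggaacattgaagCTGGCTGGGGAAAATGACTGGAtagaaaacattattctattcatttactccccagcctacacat

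The 96 RNAs together accounted for 19288, 19415 and 19660 RPM (reads per 1000000 mapped reads) in replicates 1, 2 and 3, with a mean of 19454 ± 189 RPM (SD, n = 3), or 1.95% of the mapped reads. Mean levels of single RNAs ran from 50.3 to 1235 RPM with a median of 121 RPM, and the 10 highest RNAs held 33.0% of the reads. Replicates were close: the coefficient of variation (SD divided by the mean) was below 10% for 74 of the 96 RNAs and had a median of 6.55%. Only Gm26202 varied by more than 20%. Levels here are RPM, not divided by RNA length, and they count fragments of 14 to 41 nt, so they do not measure the intact snoRNA, which is longer than the longest read for every member (60 to 272 nt). The levels chose the members and are given without a test.

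**Figure D1:**
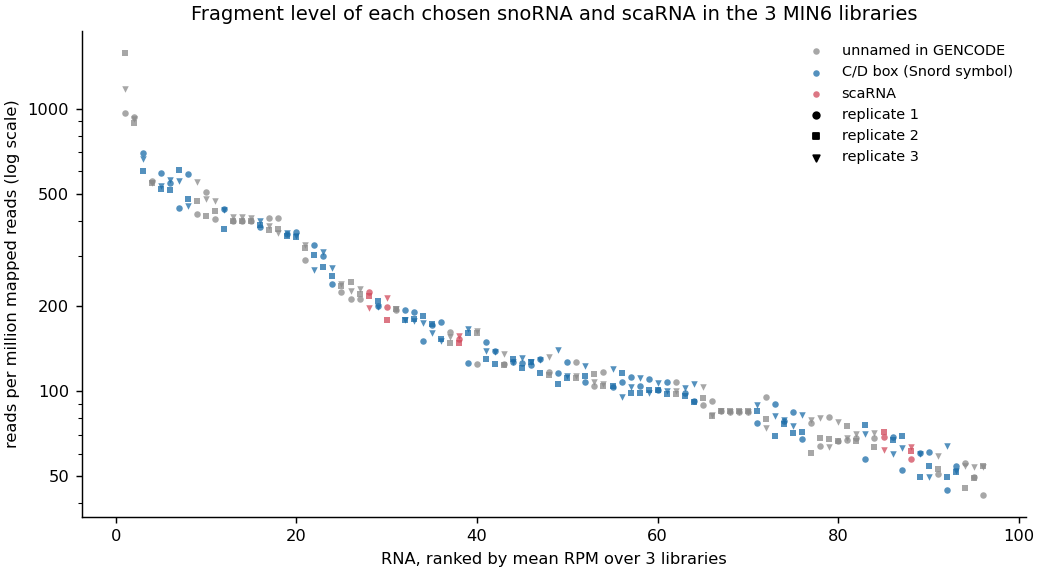
RPM (log scale) of each of the 96 RNAs in the 3 MIN6 libraries, ranked by mean level, with 1 symbol shape per replicate and colors for the class. Levels run from 50.3 to 1235 RPM in the mean, C/D box and unnamed RNAs are mixed up to 654 RPM, above which lie Gm26202 and Gm25855, both unnamed, and the 5 scaRNAs lie between 60.6 and 213 RPM.

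The C/D box genes summed to 9226 ± 178 RPM, the unnamed RNAs to 9539 ± 269 RPM and the scaRNAs to 690 ± 12.7 RPM (SD, n = 3 each). Of the 42 unnamed RNAs, 25 had TGATGA, the core of the C box, within the first 20 bases and CTGA, the D box, within the last 15 bases. Over all 96 RNAs, 61 (63.5%) had both, compared with 310 (19.9%) of the 1558 annotated sequences. CTGA within the last 15 bases was found in 93.8% of the 96 and in 30.9% of the annotated sequences, and TGATGA in 65.6% and 21.3%. ACA directly before the last 3 bases, the H/ACA box position, was found in 4.17% of the 96 and in 19.3% of all. ANANNA, the H box letters, lay more than 40 bases from both ends in 9.38% of the 96 and in 65.1% of all annotated sequences, and it needs an RNA long enough to hold it. These motifs were searched on the RNA strand only, and some of their letters overlap in TGATGA and CTGA. Only the 133 genes placed by sequence could be among the 96, and no Snora gene was placed. The shares of all annotated sequences are not under this limit, and shares for the placed genes alone were not computed.

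The 15 C/D box genes with the highest mean RPM fall into 4 patterns of fragment position. Positions are counted from 1 at the first annotated base of the RNA, and 0 or a negative position lies upstream of it. In the largest pattern, the fragment came from the 3′ part. Snord32a was the highest C/D box gene, with 699, 598 and 664 RPM in replicates 1, 2 and 3. Its reads began most often at base 42 (35.1%) and ended almost equally often at base 81 and at base 79 of 83 (38.6% each), with the order differing between libraries, and the most used length was 38 nt. Snord33, which lies in the same host gene, Rpl13a, had 366, 351 and 355 RPM, with 53.2% of reads starting at base 43 and 67.2% ending at base 80 of 84, most often 38 nt long. Both members of this pair, known for their part in the lipotoxic response together with the other snoRNAs of Rpl13a, thus gave mostly the 3′ part, with 95.9% and 95.6% of reads ending within 5 nt of the 3′-end. Snord35a of the same host was mixed: 59.2% of its reads began within 5 nt of the 5′-end and 3.01% ended within 5 nt of the 3′-end. However, 35.3% ended 2 nt past its D box, which lies too far from the annotated 3′-end to count there. Its most abundant single fragment also ended at that place.

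Snord2 had 589, 519 and 530 RPM, with the main start at base 37 (42.6%), the main end at base 65 of 69 (65.1%) and 29 nt as the most used length. Snord49a had 380, 387 and 400 RPM, starting most often at base 42 (24.4%) and ending at the last base, 72 (87.3%), at 31 nt. Snord49b from the same host had 329, 303 and 269 RPM, with 91.3% of reads ending at base 72 but only 16.6% at the main start, base 35, and 38 nt as the most used length. In both, the 3′-end was fixed and the 5′-start was spread. Snord45b had 199, 209 and 198 RPM, with the main start at base 36 (39.7%), the main end at base 70 of 71 (62.6%) and 35 nt as the most used length. It shares its host, Rabggtb, with Snord45c, whose fragments came from the opposite end.

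Short 3′ pieces were most used in 2 of the 15. Snord99 had 587, 477 and 451 RPM, starting most often at base 52 (30.8%) and ending at base 68 of 74 (42.6%), with 17 nt as the most used length. Only 10.9% of its reads had 26 nt or more. Snord12 had 441, 373 and 439 RPM and the sharpest 3′-end of the 15: 98.1% of its reads ended at base 83 of 90, whereas no start held more than 19.6% (base 67), and the most used length was 17 nt although 67.8% of reads had 26 nt or more.

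In the second pattern, the fragment came from the 5′ part. Snord52 had 443, 608 and 553 RPM, with the main start at position 0 (58.4%), the main end at base 35 of 66 (93.6%) and 36 nt as the most used length. Its level was lower in replicate 1 than in the other two. Snord45c had 238, 255 and 271 RPM, starting at base 1 (55.3%) and ending at base 31 of 80 (66.0%), at 31 nt. Snord55 had 194, 178 and 178 RPM, starting at base 2 (69.9%) and ending at base 40 of 79 (54.4%), at 39 nt. Snord69 had 301, 274 and 309 RPM, starting at base 7 (52.1%) and ending at base 34 of 80 (71.7%), at 28 nt. The start of Snord69 lies 6 nt upstream of its C box, as in Snord52 and Snord45c, so its fragment is counted as internal only because the annotated RNA begins further upstream.

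Both parts were found in the third pattern. Snord104 had 544, 515 and 558 RPM, with 50.7% of reads starting within 5 nt of the 5′-end and 49.1% ending within 5 nt of the 3′-end. Its most used start was position -1 (45.2%), its most used end base 70, the last (28.4%), and its most used length 27 nt. Snord60 had 191, 180 and 177 RPM, with the most used start at base 1 (30.2%), the most used end at base 78, the last (35.4%), and 31 nt as the most used length. Reads of at most 41 nt cannot reach from end to end of these RNAs, so these starts and ends come from different reads. Whether longer fragments joined them in the cell cannot be told.

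Snord118 stood alone in the last pattern. U8 is a C/D box snoRNA needed for processing of the large ribosomal subunit RNAs rather than for methylation. It had 361, 355 and 361 RPM, with 84.7% of reads starting at base 48 and 79.9% ending at base 75 of 135, and 28 nt as the most used length (73.5%). Only 5.99% of its reads reached the 3′-end and 0.0023% began at the 5′-end.

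The remaining 34 C/D box genes had mean levels of 52.6 to 170 RPM. By the limit of 5 nt from the annotated ends, reads at the 3′-end led in 19 of them, reads at the 5′-end in 10 and internal reads in 5. The most used length ranged from 17 to 40 nt. Among these, Snord57 and Snord1a, chosen after their values were seen, had nearly uniform fragments. Snord57 had 171, 173 and 161 RPM with 56.3% of its reads running exactly from base 2 to base 29. Snord1a had 98.0, 95.7 and 103 RPM with 88.3% of its reads running exactly from base 4 to base 36.

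All 5 scaRNAs are named. Scarna6, at 224, 218 and 196 RPM, was the highest. It starts with a C box and ends with a D box, and 87.5% of its reads began at base 235 and 85.9% ended 1 base beyond its annotated last base, 265, with 32 nt as the most used length (78.1%). Gm25395, which lies in the same host gene, Atg16l1, had 153, 148 and 157 RPM and the opposite pattern, with the main start at base 1 (40.4%), the main end at base 30 of 272 (66.2%) and 29 nt as the most used length. Scarna17 had 68.9, 71.3 and 61.6 RPM, starting at base 45 (49.0%) and ending at base 78 of 79 (84.9%), at 34 nt. Scarna9 had 57.3, 61.1 and 63.3 RPM, starting at base 1 (69.7%) and ending at base 31 of 70 (81.4%), at 31 nt. Each of these 4 carries C and D box letters, and the position of the fragment differed between them as it did between C/D box snoRNAs.

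The fifth scaRNA, annotated as Mir1839, was the 1 member with an H/ACA box end and no D box. It had 198, 178 and 214 RPM, with 69.5% of reads starting at base 65, 42.6% ending at base 87 of 127, and 23 nt as the most used length (42.4%). The RefSeq sequence of mature miR-1839-5p lies within this RNA at bases 65 to 86. Reads of 20 to 25 nt made up 98.9% of its reads and reads of 26 nt or more 0.404%, the lowest share of the 96 RNAs. The only other member that contains a RefSeq mature miRNA was Snord33, with miR-5121 at bases 3 to 23, where few of its reads lay: 3.55% began within 5 nt of the 5′-end.

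Lengths set the fragments of the 96 RNAs apart from the bulk of the libraries. Reads of 26 nt or more were 75.1%, 77.8% and 76.5% of the reads of the 96 RNAs in replicates 1, 2 and 3, and 9.64%, 10.2% and 10.1% of all mapped reads. Conversely, 20 to 24 nt, the miRNA range, held 11.5% ± 0.651 of their reads and 77.7% ± 0.427 of all mapped reads (SD, n = 3). Of all mapped reads of 26 nt or more, 14.9% ± 0.115 lay in the 96 RNAs. These ranges do not overlap between the sets in any library, and no test was made because the members were chosen by read number.

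The length distribution of the 96 RNAs had peaks at 28 nt (9.92% ± 0.402), 35 nt (8.59% ± 0.0921) and 40 nt (10.2% ± 1.46), where all mapped reads had 0.558%, 0.481% and 0.432%. The 40 nt peak came mainly from Gm26202 (56.5% of the 40 nt reads), and the 35 nt peak largely from Gm22192, Gm25632 and Gm24920 (45.0%), which are identical in sequence. The 28 nt peak was shared, with no RNA holding more than 18.9% of it. Since almost no aligned read was longer than 40 nt, a fragment at this length may have been longer in the cell.

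**Figure D2:**
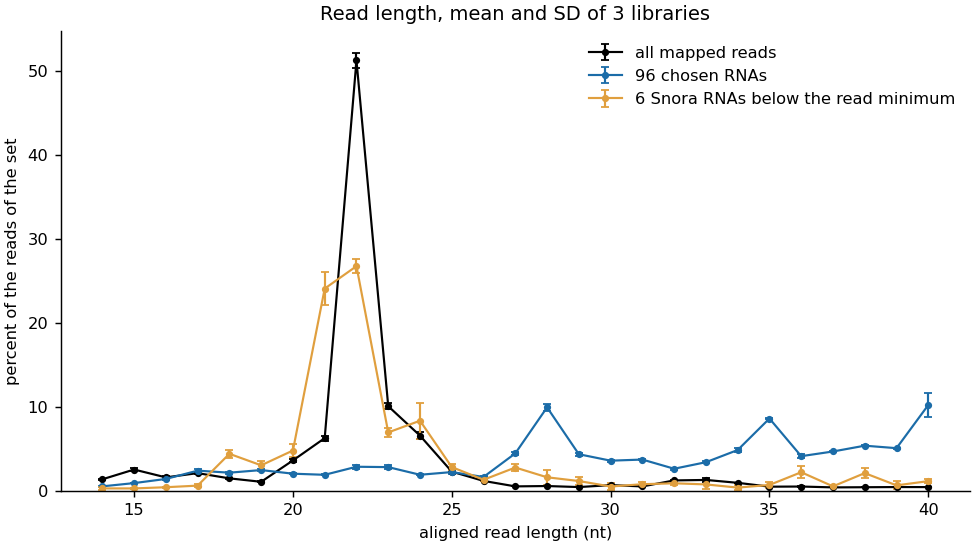
Percent of reads at each aligned length (14 to 40 nt) for all mapped reads, the 96 chosen RNAs and 6 Snora RNAs below the read minimum; points are means and bars SDs of 3 libraries. All mapped reads peak at 22 nt with 51.2%, the 96 RNAs peak at 28, 35 and 40 nt, and the Snora RNAs peak at 21 and 22 nt.

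Gm26202, which lies within Rpl17, was the highest of the 96 with 963, 1568 and 1172 RPM and was chosen for description, like the other unnamed RNAs named here, after its values were seen. Its fragments were nearly uniform, with 90.4% of reads running exactly from base 1 to base 40 of 65. Replicate 2 was the highest and replicate 1 the lowest. The share of reads of 39 nt or more in all 96 RNAs moved in the same order (14%, 16.8% and 15%), but without Gm26202 it was 9.87%, 9.88% and 9.96%. Replicate 1 was the lowest of the 3 libraries for 33 of the 96 RNAs, about as many as an even spread over the 3 libraries would give. Among them were Snord52 and Gm24357 (124, 161 and 163 RPM, most often 40 nt). The second highest, Gm25855, had 936, 888 and 916 RPM, of which 36.8% ran from base 42 to base 69 of 72.

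Across the 96 RNAs, the most used 5′-start was the same base in all 3 libraries for 91, the most used 3′-end for 83 and the most used length for 71. Reads at the 3′-end were the largest part for 50 RNAs, reads at the 5′-end for 29 and reads at neither end for 17. These counts, like the end shares below, depend on where the annotated RNA begins and ends. Snord12, with 98.1% of reads ending at base 83 of 90, thus counts under neither end. Only 0.0245%, 0.0248% and 0% of its reads ended within 5 nt of the 3′-end in replicates 1, 2 and 3. In the counts above and the later counts over the 96, copies that share their reads count as separate RNAs. With reads of at most 41 nt and RNAs of at least 60 nt, no read could lie within 5 nt of both ends. For the 49 C/D box genes, the median share of reads that began within 5 nt of the 5′-end was 25.7% ± 2.40 and the median share that ended within 5 nt of the 3′-end was 53.1% ± 1.46 (SD of the medians of the 3 libraries, n = 3). Over single genes, the lower and upper quartiles were 5.27% and 50.9% for the 5′-end and 6.13% and 89.8% for the 3′-end. The unnamed RNAs had medians of 19.2% ± 2.19 and 50.3% ± 2.73.

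**Figure D3:**
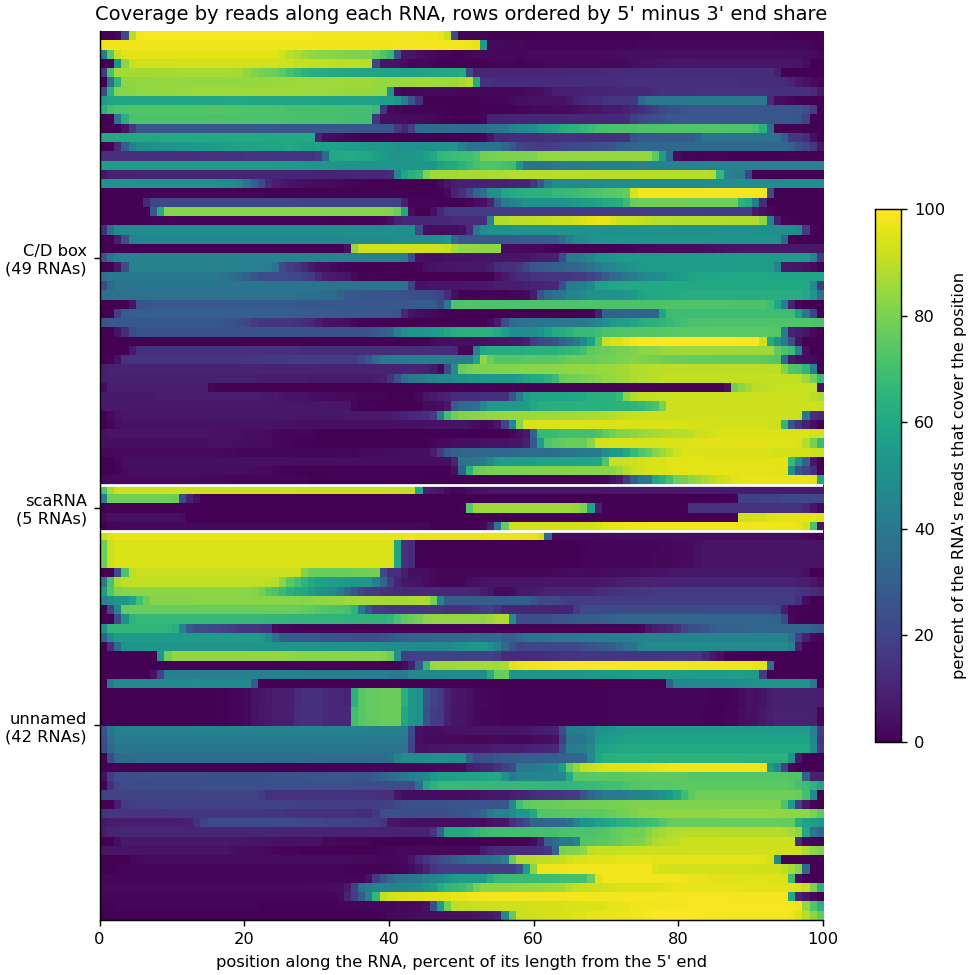
Coverage along each RNA (horizontal axis: percent of RNA length from the 5′-end), 1 row per RNA, grouped by class and ordered within a class from 5′ to 3′ fragments; color gives the percent of that RNA's reads covering the position, over 3 libraries. Coverage falls mostly into a 5′ block and a 3′ block with a break near the middle, and the block in the middle of the unnamed RNAs is that of the 4 U3 copies Rnu3b1 to Rnu3b4.

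Many of the fragments ended at a short distance behind the D box letters. CTGA occurred in 95 of the 96 RNAs, at the D box or further inside. Over all reads of the 96 RNAs, 52.7%, 52.4% and 53.7% ended exactly 2 nt past the last base of a CTGA in replicates 1, 2 and 3. A further 24.6% ended 3 to 5 nt past it, and 1.45% ± 0.0639 ended 1 nt past it. The median over the RNAs was 51.5% ± 2.50 of reads (SD of the 3 library medians, n = 3), whereas such positions made up a median of 3.12% of the possible 3′-ends in each RNA. The share of reads was above the share of positions in 83 of the 96 RNAs. Ends 2 nt past the D box are in part the reads already counted at the 3′-end. In Snord49a, for example, the 87.3% of reads ending 2 nt past a CTGA are those ending at its last base. The places of the ends relative to the boxes were to be described from the start, while the distance of 2 nt was noticed in these reads and is a description only.

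The most abundant fragment ended 0 to 6 nt past the D box in 50 RNAs, exactly 2 nt past it in 28 of these. It ended 0 to 6 nt past an inner CTGA, where the D′ box would lie, in 32 RNAs, and exactly 2 nt past in 28 of these. The most abundant fragment ended at an inner CTGA in, for example, Snord52, Snord1a, Snord57, Snord69 and Scarna9. In these, 95.0%, 94.4%, 87.6%, 84.6% and 81.5% of reads ended 2 nt past any CTGA of the RNA. It ended at the D box in Snord12, Gm25789, Snord49b and Snord49a, with shares of 98.1%, 92.6%, 91.5% and 87.3%. These shares count every CTGA of the RNA, so they can hold ends at both the inner CTGA and the D box. In 16 of the 96 RNAs the share was under 5%, among them Gm26202 with 0.143%, Scarna6 with 3.64%, and Gm23262 and Mir1839 with 0%, and Snord118 had 7.23%.

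**Figure D4:**
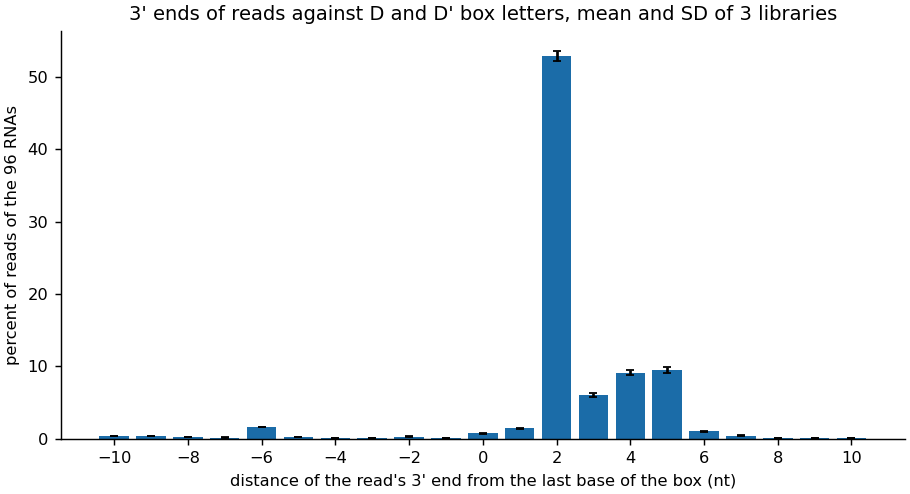
Percent of reads of the 96 RNAs (vertical axis) by the distance in nt of the 3′-end from the last base of a CTGA; bars are means and error bars SDs of 3 libraries, and reads with no such box within 10 nt (14.9%) are not drawn. The bar at 2 nt holds 53.0%, and the bars at 3, 4 and 5 nt hold 6.01%, 9.11% and 9.51%.

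The 5′-starts of 5′ fragments were placed against the C box in the same manner. The most abundant fragment began at or upstream of a TGATGA near the 5′-end in 23 RNAs, 4 to 6 nt upstream in 21 of these, with a median of 6 nt and a range of 3 to 7 nt. For fragments of the 3′ part no constant distance was set for description, and their starts spread over more bases, as in Snord12 and Snord49b.

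Bases that differ from the annotated sequence were found at the 3′-end of reads of a few members. Reads with a mismatched A as their last base made up 1.69% ± 0.0850 of the reads of the 96 RNAs and 1.78% ± 0.0247 of all mapped reads (SD, n = 3). For a mismatched T, the letter that marks uridine addition, the 96 RNAs had 0.117% ± 0.000857, compared with 5.11% ± 0.259 of all mapped reads. The highest share of terminal A was in Snord87 (175, 153 and 150 RPM), with 45.0%, 43.7% and 41.1% of its reads in replicates 1, 2 and 3. There, 2103 reads ended at base 80, which is 2 nt past the D box, and 1994 reads carried an A at base 81, where the RNA has a T. Only 105 reads ran beyond base 81. Snord66 followed among the C/D box genes with 13.2%, 11.7% and 12.7%, most often with the A at position 76, 1 base past its annotated last base, where the genome base is not given by the RNA sequence. Whether these bases were added or differ in the cells' genome was not tested.

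The H/ACA box side of the comparison stayed empty under the rule. None of the 42 Snora genes could be placed at 20 bits of sequence information, and the highest reached 16.7 bits, since a placement rests on reads with mismatches across the RNA. The rule therefore could not count them, and their absence from the 96 does not show that they give no fragments. By a criterion added after the data were seen, the distance to neighbouring placed genes, 7 Snora genes at 6 loci could be located, and 35 genes could not. The 6 RNAs held 1921 reads in all, each below the minimum. Their placements had 7.47 to 14.6 bits, and those of Snora36b and Snora41 rest on 1 agreeing neighbour each, within 10 nt. Chance placements were not counted for this criterion, so the end positions given for these 6 RNAs are less certain than those of the 96.

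Snora16a had 22.2, 15.7 and 19.6 RPM, Snora36b 18, 16.9 and 14.6 RPM, and Snora41 10.3, 10.3 and 10.7 RPM. Snora28 had 5.80, 5.66 and 9.37 RPM, Snora44 6.17, 6.19 and 6.27 RPM, and Snora81 3.69, 5.14 and 4.03 RPM. The most used length was 21 or 22 nt for 5 of the 6, and 32 nt for Snora81. The median share of reads of 26 nt or more was 21.6% ± 2.24 for the 6 Snora RNAs and 79.4% ± 1.73 for the 49 C/D box genes (SD of the medians of 3 libraries). The ranges over single RNAs overlap, from 0.761% to 59.4% for Snora and from 11% to 99.5% for C/D box genes. The median mean read length was 23.4 ± 0.250 nt against 29.7 ± 0.0989 nt. The 2 sets differ in level as well as in class, so the part of either in the difference in length cannot be told apart here.

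Reads ending within 5 nt of the 3′-end had a median share of 63.5% ± 3.27 over the 6 Snora RNAs, and reads beginning within 5 nt of the 5′-end 3.82% ± 2.71. Such 3′ reads were over 50% in 3 of the 6, while Snora44 had 55.2% of its reads at the 5′-end and 1.59% at the 3′-end. Snora16a had 93.9% of its reads ending at its last base, 136, and Snora41 had 89.0% of its reads starting at base 108 of 132. Snora36b contains RefSeq miR-664-5p at bases 69 to 89 and miR-664-3p at bases 106 to 127, and its most used fragment ran from base 69 to base 90 (31.6%) while its most used start was base 106 (47.3%). Snora36b, with 499 reads, and Snora41, with 316, ended in a mismatched T in 14% and 13.6% of reads. All mapped reads had 5.11% and Mir1839 had 2.62%. These RNAs were named after their values were seen, and the shares of the other Snora RNAs are not given, so no trait of the class follows.

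Host genes are those of the GENCODE annotation that contain the RNA on the same strand. This held for 92 of the 96 RNAs, of which 39 lie in an intron of every annotated host transcript and 53 overlap an exon of at least 1 transcript. At least 2 of the 96 RNAs shared a host in 22 host genes, some of which overlap each other. Snhg1, a non-coding snoRNA host gene, contained 8 RNAs, the most of any host, which summed to 2876, 2833 and 3005 RPM, or 14.9% of the level of all 96. Gas5, a non-coding host gene whose RNA is linked to growth arrest, contained 6 RNAs, which summed to 1764, 1677 and 1766 RPM.

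RNAs of 1 host, which leave the same primary transcript, differed widely in fragment level. In Snhg1 the highest, Gm25855, had 913 ± 24.1 RPM and the lowest, Snord22, 73.7 RPM, a ratio of 12.4. In Gas5, Gm23212 had 548 RPM and Snord78 78.0 RPM, a ratio of 7.02. In Rpl13a, Snord32a had 654 ± 50.8 RPM and Snord35a 54.9 RPM, a ratio of 11.9. By contrast, the 3 RNAs of Hspa8 (Snord14c, Snord14d and Snord14e) differed by a ratio of 1.74 and those of Rabggtb by 1.65. These ratios cover only RNAs at or above the read minimum. In Gas5, Mir5117 with 1139 reads, Gm22357 with 972 and Snord47 with 607 were placed but lie below it, compared with 16592 reads of Gm23212.

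**Figure D5:**
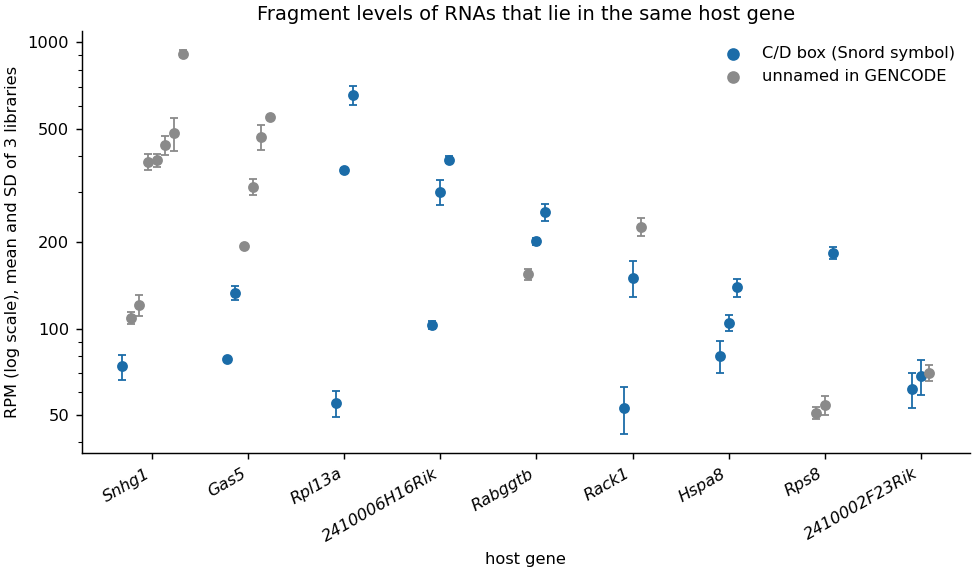
RPM (log scale, mean and SD of 3 libraries) of the RNAs that lie in each of 9 host genes with at least 3 RNAs, the U3 copies left out; colors give the class. Within Snhg1 the level runs from 73.7 to 913 RPM, and within Rabggtb it stays within a ratio of 1.65.

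Several members cannot be separated from copies. Gm22192, Gm25632 and Gm24920 have the same sequence, and their reads, divided between the loci by the authors, came to 1198, 1200 and 1235 RPM in replicates 1, 2 and 3 together, a sum close to the level of Gm26202. The 4 U3 copies Rnu3b1 to Rnu3b4, whose RNA acts in processing of the small ribosomal subunit RNA, summed to 338, 340 and 337 RPM, with base 76 as the most used start (46.4% in Rnu3b3) and short reads (28.2% of 26 nt or more). Snord50a and Gm24463 held equal read numbers, and so did Snord50b and Gm26135. The main fragment ended at the D box in the first pair and at an inner CTGA in the second. Together with Gm23017, these RNAs summed to 584, 522 and 532 RPM. For 14 RNAs, under 60% of the reads had an undivided read number, and their single levels depend on how the reads were shared.

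At the edge of the selection, the 3 RNAs just inside were Mir3096 with 1535 reads, Gm26330 with 1541 and Gm25835 with 1560. The 3 just outside were Snord38a with 1423 reads, Snord15b with 1395 and Gm24826 with 1391. Snord34, a further snoRNA of Rpl13a, held 1962 reads and Gm22455 2044 reads at the loci given by neighbour distances, but both stayed under 20 bits (18.8 and 13.4) and were not counted among the 96.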

How the data were processed

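Small RNA was measured in 3 libraries of 1 group. The authors deposited alignments of adaptor-trimmed reads, with the mismatches and the number of reads of each alignment. These numbers are expected counts, because the authors divided a read with several equally good loci among them, and they are not scaled by depth. cutadapt and Bowtie and the build mm9 are named in the submitters' processing notes. Mismatched reads were sought only near exact matches, so a locus without an exact read was not counted. Alignments marked as exact end 1 base early, and this was corrected.

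A base recorded as a mismatch cannot be the genome base at its position. Each of the 1558 GENCODE M21 snoRNA and scaRNA sequences was placed on its own chromosome and strand where no base was excluded and at least 20 bits of information supported it. This placed 133 genes, and 1 of the reversed sequences, which counts chance placements. Reads lying within the RNA extended by 5 nt were counted and expressed as RPM of all mapped reads. Copies with equal matches were told apart by their distance to neighbouring placed genes within 10 nt, a criterion added after the data were seen, and identical copies without it took 1 site each. The annotation is of a later build than the alignments, so distances and gene containment, but no coordinates, were taken from it. The placement was tested on simulated data.

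A Snord symbol set the C/D box class, a Snora symbol H/ACA box, and gene type scaRNA or a Scarna symbol scaRNA. Named were all scaRNA and H/ACA box genes meeting the minimum, the 15 C/D box genes with the highest mean RPM, and the 3 RNAs on either side of the minimum. Others are named after their values were seen. The members and lists were chosen with earlier results of these data known, and no test was made, since all libraries share 1 condition and genes are not replicates. Alternatives were other minimums, 30 bits, undivided or exact alignments only, pooled reads, other end and length limits and each replicate left out. With 9269795 to 10816006 mapped reads, 3 reads correspond to 0.324 RPM in the smallest library. Python 3.11.15, numpy 2.4.6, pandas 2.3.3 and matplotlib 3.10.9 were used.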

Additional observations from a re-analysis of the deposited data

How the results depend on the processing

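The number of genes at the minimum was 101 and stayed within 1.5 times (78 to 115) under every alternative except a minimum of 3000 reads, which left 63. Without 1 replicate, with the minimum kept per library, it was 98 to 101. The summed level of 19454 RPM was 19981 at 1000 reads, 17029 at 3000 reads, 17815 at 30 bits, 17571 without the extension, 17464 with undivided reads, 14488 with exact reads and 26064 over exact reads as denominator. Without 1 replicate it ranged from 19206 to 19538. For the C/D box genes, the median share of reads of 26 nt or more (79.4%) was 75.1% at 3000 reads, 76.9% at 30 bits, 82.5% with undivided reads, 77.6% with exact reads, 72.3% pooled and 72.1% with 28 nt as the limit, and 78.4% to 80.2% without 1 replicate. The 5′-end share (25.7%) was 20.8% with undivided reads, 22.9% with exact reads, 28.5% pooled and 10.2% within 2 nt, and 24.4% to 26.7% without 1 replicate. The 3′-end share (53.1%) was 55.4% at 1000 reads, 56.6% at 3000 reads, 55.6% with exact reads, 50.3% pooled, 15.6% within 2 nt, 62.3% within 10 nt and 57.0% with the unnamed RNAs that carry both boxes added, and 52.4% to 53.8% without 1 replicate. The 3′-end share was above the 5′-end share under each of these settings. The median share of reads ending 2 nt past a CTGA (51.5%) was 56.6% with undivided reads, 63.1% with exact reads, 53.0% pooled and 66.3% at 3000 reads, settings chosen after seeing the data, and 51.9% to 53.1% without 1 replicate. For these shifts the cause was not tested. The H/ACA box shares gave no value under the rule or any alternative, since no Snora gene was placed. No paired analysis was possible because there is only 1 group.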
